A study of Mus musculus with 30 samples.

Results

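10 genes grouped as late-rising and p53-dependent after doxorubicin in p53-restored mouse fibroblasts are described here. These are Tbc1d8, Celf5, Icam1, Acaa1b, Ppp2r2c, Vnn1, Tnfrsf18, Cox6b2, Tcaf2 and Arap2. The word late does not describe all of them. With AdenoCRE the largest step of Cox6b2 ended at 1 h and that of Arap2 at 3 h. Celf5, Icam1 and Vnn1 gained 0.79, 0.81 and 0.84 log2 units in the first hour, though their largest step ended at 6 h. The intervals between arrays were unequal, and a longer interval favours a larger step. The 10 genes are among the 18194 that have a probe set with a single gene symbol. They were picked from these same arrays for a steep rise with hours of doxorubicin after AdenoCRE or for a strong loss with siRNA against p53. The AdenoCRE time course, its difference from AdenoGFP and the p53 siRNA values therefore chose the genes, and they are given below as a description with no test. The siRNAs against lincP21 and hnRNPK did not enter the choice and were tested, although they share control arrays with the p53 siRNA. The AdenoGFP slopes were tested too, except that of Tcaf2, which was singled out for it.

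The cells were mouse embryonic fibroblasts from E13.5 embryos, strain C57BL/6 x 129SvJ, homozygous for the p53 LSL allele, in which a stop cassette keeps the p53 gene silent until Cre removes it. Expression was read on Affymetrix arrays and deposited as log2 RMA signal. In the time course, cells received AdenoCRE, which restores p53, or the control virus AdenoGFP for 24 h and then no drug (0 h) or 500 nM doxorubicin for 1, 3, 6 or 9 h, with 1 array for each virus and hour. In the siRNA experiments every group carried AdenoCRE (24 h), siRNA (24 h) and 100 nM doxorubicin (13 h), controls included. The hnRNPKKD experiment held 3 arrays each of siP53, siLincp21, siHnrnpk and a non-targeting pool. The lincP21KD experiment held 3 arrays each of siP53 and siLincp21 and 2 of a non-targeting pool. Both sets of time course cells received an adenovirus. Effects of Cre itself, or of other differences between AdenoCRE and AdenoGFP, cannot be told apart from p53 restoration. Nothing in the labels says that arrays of a group came from separate cultures, so p-values measure only the spread between these arrays, and their number limits the precision.

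p53 is a transcription factor that DNA damage stabilises. It binds pairs of half-sites near its target genes and activates cell cycle arrest, repair and death programmes. Doxorubicin breaks DNA by trapping topoisomerase II. lincRNA-p21 is a long non-coding RNA next to the p53 target Cdkn1a, and hnRNPK is an RNA- and DNA-binding protein known as its partner and as a p53 cofactor. The genes described here are of mixed function. Icam1 and Tnfrsf18 encode cell-surface receptors, Tbc1d8, Arap2 and Ppp2r2c encode regulators of small GTPases or of a phosphatase, Celf5 encodes an RNA-binding protein, and Vnn1, Acaa1b and Cox6b2 encode metabolic proteins.

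Promoter sequence is shown for 3 of them, chosen as a gene with a p53 half-site, a gene that siLincp21 lowered and a gene that climbed with both viruses. Each run is the 250 bases before a RefSeq transcript start (GRCm38.p6, all on the minus strand, 5′ to 3′). Capitals mark the motif match named beside each one.

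Celf5, chr10:81482700-81482949, p53 half-site: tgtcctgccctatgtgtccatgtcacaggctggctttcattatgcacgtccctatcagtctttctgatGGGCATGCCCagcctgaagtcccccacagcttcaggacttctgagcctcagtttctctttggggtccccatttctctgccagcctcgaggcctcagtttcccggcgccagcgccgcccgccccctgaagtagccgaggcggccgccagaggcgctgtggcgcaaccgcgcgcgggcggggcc

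Arap2, chr5:62766178-62766427, TGANTCA: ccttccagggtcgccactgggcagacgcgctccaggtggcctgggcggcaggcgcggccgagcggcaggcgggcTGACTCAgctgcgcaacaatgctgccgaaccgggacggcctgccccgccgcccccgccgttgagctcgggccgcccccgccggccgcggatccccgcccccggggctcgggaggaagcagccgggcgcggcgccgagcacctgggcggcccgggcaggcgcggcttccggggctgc

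Tcaf2, chr6:42645042-42645291, kappa B motif: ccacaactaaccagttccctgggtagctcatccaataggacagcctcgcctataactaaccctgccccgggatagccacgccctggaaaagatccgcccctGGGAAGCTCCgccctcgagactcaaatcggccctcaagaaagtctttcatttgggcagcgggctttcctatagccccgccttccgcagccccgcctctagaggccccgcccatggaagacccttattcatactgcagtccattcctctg

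4 motifs were searched on both strands of windows that run from 250 bases before to 50 bases after each start, which 9 of the 10 genes have in the RefSeq table, in 14 windows. The p53 half-site, a motif of 10 letters, matched 1 gene, Celf5, at bases -182 to -173 of 1 of its 5 windows, against 8.36% of all 32851 windows. The match is a palindrome and so counts on both strands. The kappa B motif matched Tcaf2, Cox6b2 and Celf5 (8.46% of all windows), TGANTCA matched Arap2 and Celf5 (7.81%), and TATAAA matched Icam1 (13.6%), at bases 14 to 19 after its start. No 2 of these matches overlapped within a window. A match describes the letters of a window and is not a binding site.

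All 8 fibroblast markers passed the filter on low values, and their mean per array lay between 12.0 and 13.1 log2 units over all arrays. None of the 6 germ cell and none of the 5 hepatocyte markers passed it. Of 10 macrophage and lymphoid markers 4 passed, Cd68 (at most 8.531 on any array), Csf1r (7.203), Lyz2 (6.840) and Cd8a (6.335), while the pan-leukocyte marker Ptprc did not (at most 4.716). Of 6 endothelial markers 1 passed, Kdr (at most 7.699), and of 6 neural markers 4, with Map2 and Tubb3 reaching 9.21. In whole cultures, fewer cells of a type and less RNA per cell cannot be told apart. The filter left out the lowest 40% of genes by mean level over all arrays (under 5.245 log2 units), and all 10 genes were among the 10916 genes kept. The hnRNPK siRNA lowered its own target: Hnrnpk had 8.38, 8.34 and 9.94 log2 units with siHnrnpk, against 12.68, 12.03 and 12.47 with the control pool (log2 difference -3.51 ± 0.36 SE, limma adjusted p = 2.64e-05). In hnRNPKKD the library siP53 replicate 2 stood apart, with Mdm2 at 9.74, against 8.55 and 8.65 on the other siP53 arrays. p53 itself is not analysed here.

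With AdenoCRE, 7 of the genes had slopes on hours that ranked between 2 and 8 of 10916, from 0.50 log2 units per hour for Tbc1d8 to 0.46 for Tnfrsf18. Just outside this range lay 1700007K13Rik above, at 0.52, and Arhgef4 (0.45) and Slc4a11 (0.45) below. The other genes had lower ranks, 75 for Arap2 (0.23), 155 for Cox6b2 (0.18) and 168 for Tcaf2 (0.17). An onset was set as the first hour at which a value was at least 1 log2 unit above the 0 h array of the same virus and stayed so. With AdenoCRE it fell at 3 h for Tbc1d8, Celf5, Icam1, Acaa1b, Vnn1 and Arap2 and at 6 h for Ppp2r2c, Tnfrsf18, Cox6b2 and Tcaf2. With AdenoGFP it was reached by Icam1 and Tcaf2 alone, at 9 h. The hour depended on the limit. At 0.5 the AdenoCRE onset moved to 1 h for Celf5, Icam1, Vnn1 and Cox6b2 and to 3 h for Tnfrsf18 and Tcaf2. At 1.5 it moved to 6 h for Tbc1d8, Celf5, Acaa1b, Vnn1 and Arap2 and to 9 h for Cox6b2, and Tcaf2 had none. With the mean of a gene's probe sets it was 6 h for Tbc1d8 and Arap2. The AdenoGFP onset at 0.5 was 1 h for Icam1, 6 h for Tcaf2 and 9 h for Tbc1d8 and Vnn1. At 1.5 Icam1 alone had an AdenoGFP onset, at 9 h. With quantile scaling and the limit of 1, the AdenoGFP onset of Tcaf2 was 6 h. The AdenoCRE values of Ppp2r2c, Tnfrsf18 and Acaa1b to 3 h, and of Tbc1d8 to 1 h, lay under the filter limit of 5.245. An earlier start of their rise could hardly show there, so their onset hours are uncertain. Of all 10916 genes, 3.41% had an onset with AdenoCRE and 0.623% with AdenoGFP. The rule used the AdenoCRE share, and nothing is read from it.

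**Figure D1:**
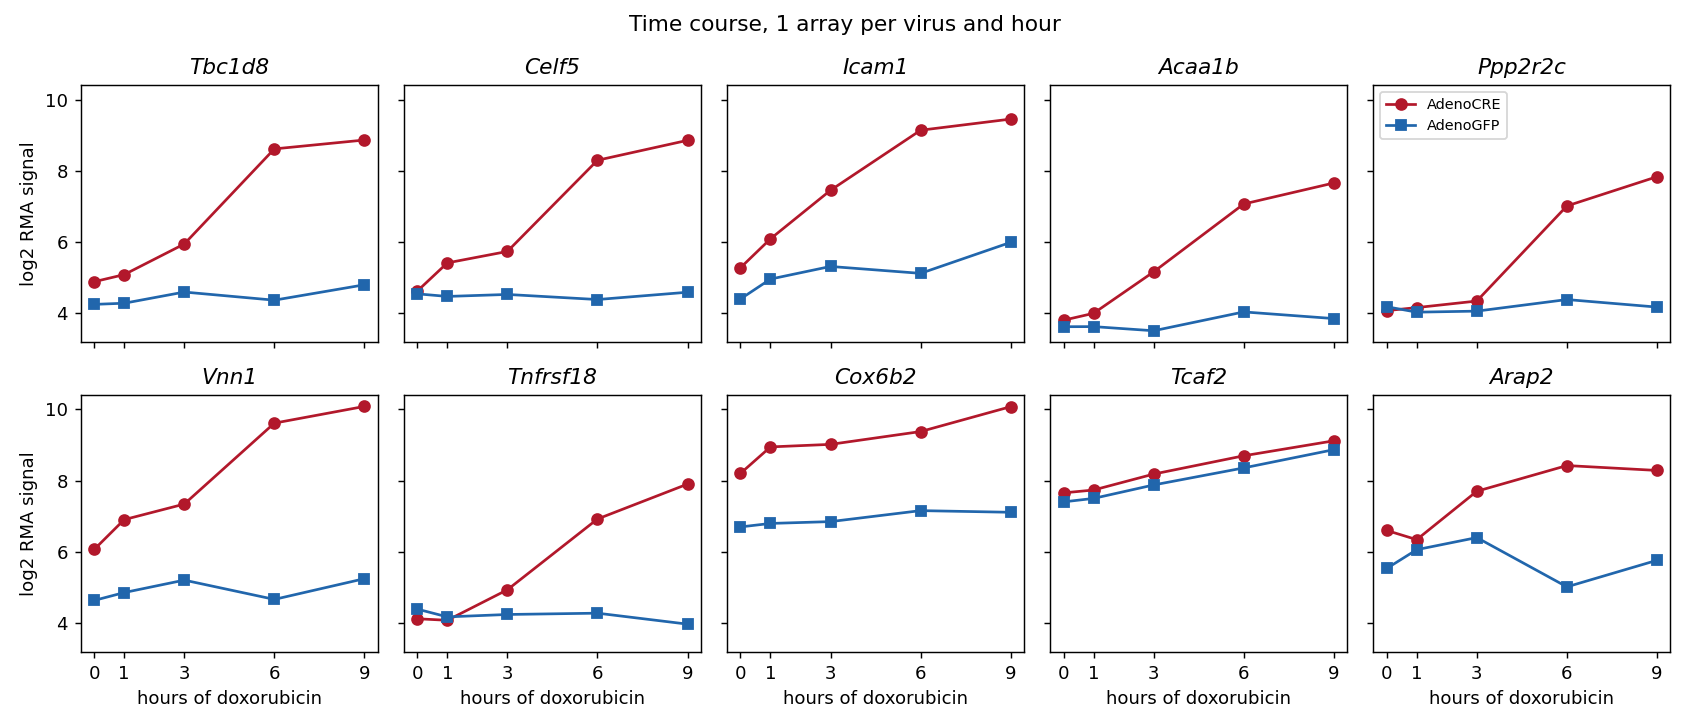
Log2 RMA signal (vertical axis) against hours of doxorubicin (horizontal axis) for each of the 10 genes, with AdenoCRE as red circles and AdenoGFP as blue squares, 1 array per point. The step between 3 and 6 h is the largest for 8 genes with AdenoCRE. The intervals between arrays are unequal, so the largest step is not always the fastest rise per hour. From 0 to 9 h the AdenoGFP lines rise by more than 1 unit only for Tcaf2 and Icam1.

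Among the receptors, Icam1, an adhesion molecule that leukocyte integrins bind and a classic NF-kB target, had 5.28, 6.09, 7.45, 9.14 and 9.45 log2 units at 0, 1, 3, 6 and 9 h with AdenoCRE, and 4.40, 4.96, 5.32, 5.12 and 5.99 with AdenoGFP. It was the one gene besides Tcaf2 that ended more than 1 unit above its start without restored p53. Tnfrsf18 (GITR), a TNF receptor family member known as a co-stimulator on T cells, had 4.12, 4.08, 4.94, 6.92 and 7.90 with AdenoCRE, and 4.39, 4.17, 4.24, 4.28 and 3.97 with AdenoGFP. Its AdenoCRE values were below those of AdenoGFP until 1 h and 3.93 units above them at 9 h.

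Tbc1d8, a TBC-domain protein of the family that switches off Rab GTPases, had 4.89, 5.09, 5.95, 8.61 and 8.86 with AdenoCRE over the same hours, and 4.25, 4.28, 4.6, 4.37 and 4.80 with AdenoGFP. Of its AdenoCRE change, 2.67 units came between 3 and 6 h, and its second, dimmer probe set was 1.97 units higher at 9 than at 0 h, against 3.98 for the one used. Ppp2r2c, a regulatory B subunit of the phosphatase PP2A known mainly from brain, had 4.08, 4.16, 4.35, 7.01 and 7.83 with AdenoCRE, and 4.19, 4.03, 4.06, 4.39 and 4.18 with AdenoGFP. It stepped up by 2.67 units between 3 and 6 h. Its AdenoCRE values to 3 h lay under the filter limit of 5.245, so a change before then could hardly show. Its 2 other probe sets, both dimmer, differed by 1.01 and by -0.18 units between 9 and 0 h, against 3.76 for the one used. Arap2, a GTPase-activating protein for ARF6, had 6.60, 6.34, 7.70, 8.42 and 8.28 with AdenoCRE, and 5.53, 6.06, 6.40, 5.02 and 5.76 with AdenoGFP. Its AdenoCRE level was highest at 6 h and slightly lower at 9 h.

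Celf5, an RNA-binding protein of the CELF family of splicing regulators, had 4.62, 5.42, 5.74, 8.30 and 8.85 with AdenoCRE, and 4.55, 4.47, 4.53, 4.39 and 4.59 with AdenoGFP. The viruses differed by 0.08 units before the drug and by 4.26 units at 9 h. Vnn1 (vanin 1), a membrane-anchored pantetheinase that yields cysteamine and vitamin B5, had 6.07, 6.90, 7.34, 9.61 and 10.08 with AdenoCRE, and 4.64, 4.86, 5.21, 4.67 and 5.25 with AdenoGFP. Unlike Celf5 it was 1.43 units apart between the viruses with no drug.

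Acaa1b, a peroxisomal thiolase of fatty acid oxidation, had 3.81, 4.00, 5.16, 7.07 and 7.66 with AdenoCRE, and 3.62, 3.63, 3.51, 4.04 and 3.85 with AdenoGFP. The probe sets that match both Acaa1b and its near-copy Acaa1a did not show this, at -0.05 and -0.14 units between 9 and 0 h with AdenoCRE. Cox6b2, the testis form of a cytochrome c oxidase subunit, had 8.20, 8.94, 9.02, 9.38 and 10.07 with AdenoCRE, and 6.70, 6.80, 6.85, 7.16 and 7.11 with AdenoGFP. It was 1.5 units higher with AdenoCRE before any drug, and its largest step between arrays came in the first hour.

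Tcaf2, known in human as a partner of the cold channel TRPM8, had nearly the same course with both viruses, which the name p53-dependent does not describe. It had 7.65, 7.73, 8.18, 8.70 and 9.12 with AdenoCRE, and 7.40, 7.50, 7.88, 8.36 and 8.87 with AdenoGFP. It climbed in step with both viruses, with slopes of 0.17 ± 0.01 (SE) log2 units per hour in each, and the gap between them stayed between 0.24 and 0.34 units. It was the single gene of 10916 called for an AdenoGFP slope (0.00916%). Tcaf2 was singled out for that call, so the call is a description and no test is given. On log2 hours, or with any hour left out, no gene was called, Tcaf2 included.

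Without restored p53, Icam1 had an AdenoGFP slope of 0.14 ± 0.05 log2 units per hour (SE, 5 arrays in each virus), which did not pass (limma, Benjamini-Hochberg adjusted p = 0.278). Cox6b2 (0.05 ± 0.02, limma adjusted p = 0.385), Vnn1 (0.04 ± 0.04, limma adjusted p = 0.719) and Arap2 (-0.04 ± 0.06, limma adjusted p = 0.807) did not pass either. All AdenoGFP arrays of Tbc1d8, Celf5, Acaa1b, Ppp2r2c and Tnfrsf18 lay under the filter limit of 5.245. These genes were kept only through arrays where they are high, and nothing is read from their AdenoGFP slopes. Most AdenoGFP arrays of Icam1 and Vnn1 lay under that limit too, with the highest at 5.99 and 5.25. Nothing is therefore read from the slopes of Icam1 and Vnn1 or from their not passing.

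Of the genes most like the mean of the 10 over the 10 time course arrays, among 351 genes that spanned at least 2 log2 units, Adssl1 came first (r = 0.990), then Tmem141, Trp53i11, Abcg1, Upp1 and Lynx1 (0.985). The arrays share virus and hour, so r is a description. Their siP53 differences in hnRNPKKD lay between 0.008 for Abcg1 and -1.44 for Tmem141.

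The p53 siRNA values were lower than control in nearly all cases. In hnRNPKKD every siP53 array lay below every control array for all 10 genes, as for 22.1% of all genes, and in lincP21KD for 9 of 10, as for 23.4% of all genes. These values helped choose the genes, so nothing is read from the counts. Levels are compared within an experiment only, since array medians differed between experiments. The filter limit of 5.245 comes from means over all arrays. It lay under the lincP21KD array medians (5.546 to 5.656) and above those of hnRNPKKD (4.832 to 4.914). In lincP21KD, values somewhat above the limit are therefore low too.

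Acaa1b had 4.48, 5.78 and 4.65 log2 units with siP53 in hnRNPKKD, against 9.20, 8.57 and 8.98 with the control pool, a difference of -3.95. In lincP21KD it had 4.19, 4.43 and 4.48 with siP53, against 6.66 and 7.01 (-2.47). Cox6b2 had 5.41, 7.03 and 4.88 with siP53 in hnRNPKKD, against 9.18, 9.01 and 9.51 (-3.46, or -4.09 without siP53 replicate 2). Every siP53 array of both genes lay below every control array, and in hnRNPKKD siP53 replicate 2 was the least reduced. Celf5 was -3.45 and -2.53 units from control in hnRNPKKD and lincP21KD, Tbc1d8 -3.37 and -2.36, and Arap2 -2.96 and -1.89. In the same order, the second probe set of Tbc1d8 was at -1.98 and -0.49. The other probe sets of Arap2 were at -3.00 and -0.85, and at -1.19 and -0.24.

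The losses of Acaa1b, Cox6b2, Celf5, Tbc1d8 and Arap2 were smaller in lincP21KD than in hnRNPKKD. The same held for Icam1, Ppp2r2c, Vnn1 and Tnfrsf18. A difference in siP53 loss between the experiments was not tested. Icam1 had 4.06, 4.97 and 4.20 with siP53 in hnRNPKKD, against 7.17, 6.63 and 7.15 (-2.57), but 4.45, 4.75 and 5.02 in lincP21KD, against 5.14 and 5.75 (-0.71). Ppp2r2c was -1.99 units from control in hnRNPKKD and -0.22 in lincP21KD. Its lincP21KD control arrays, at 4.82 and 4.83, were close to its siP53 arrays (4.59, 4.47 and 4.75). All of these lay under the filter limit of 5.245, so a loss of Ppp2r2c could hardly show there. The lincP21KD siP53 arrays of Icam1 and its control array at 5.14 lay under that limit too. The smaller losses of Ppp2r2c and Icam1 in lincP21KD are therefore not read as a difference between the experiments. Vnn1 was -2.34 and -0.77 units from control in hnRNPKKD and lincP21KD, and Tnfrsf18 -2.41 and -0.96. The second probe set of Vnn1 was at -2.55 and -0.88. Tcaf2 had 6.94, 7.09 and 6.89 with siP53 in hnRNPKKD, against 7.13, 7.17 and 7.20 (-0.20), and 6.58, 6.57 and 6.89 in lincP21KD, against 6.62 and 6.64 (0.05). It was the one gene with no loss above 0.20 units.

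**Figure D2:**
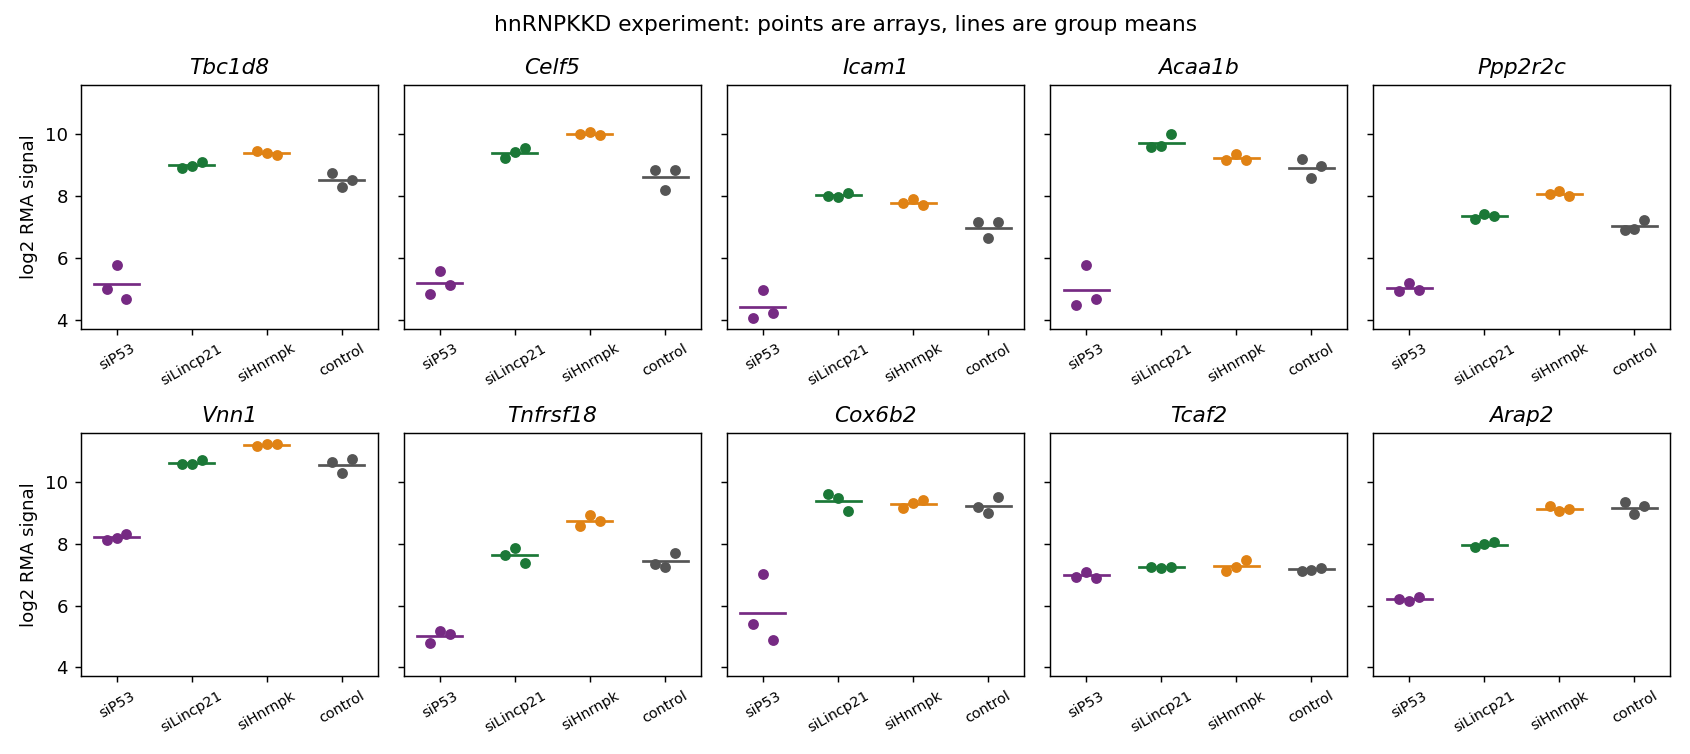
Log2 RMA signal (vertical axis) of each gene in the hnRNPKKD experiment for siP53, siLincp21, siHnrnpk and control arrays (horizontal axis), 3 arrays a group, with points for arrays and lines for group means. The siP53 points of 9 genes sit well below the rest, and the siLincp21 points of Arap2 lie between its siP53 and control points.

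**Figure D3:**
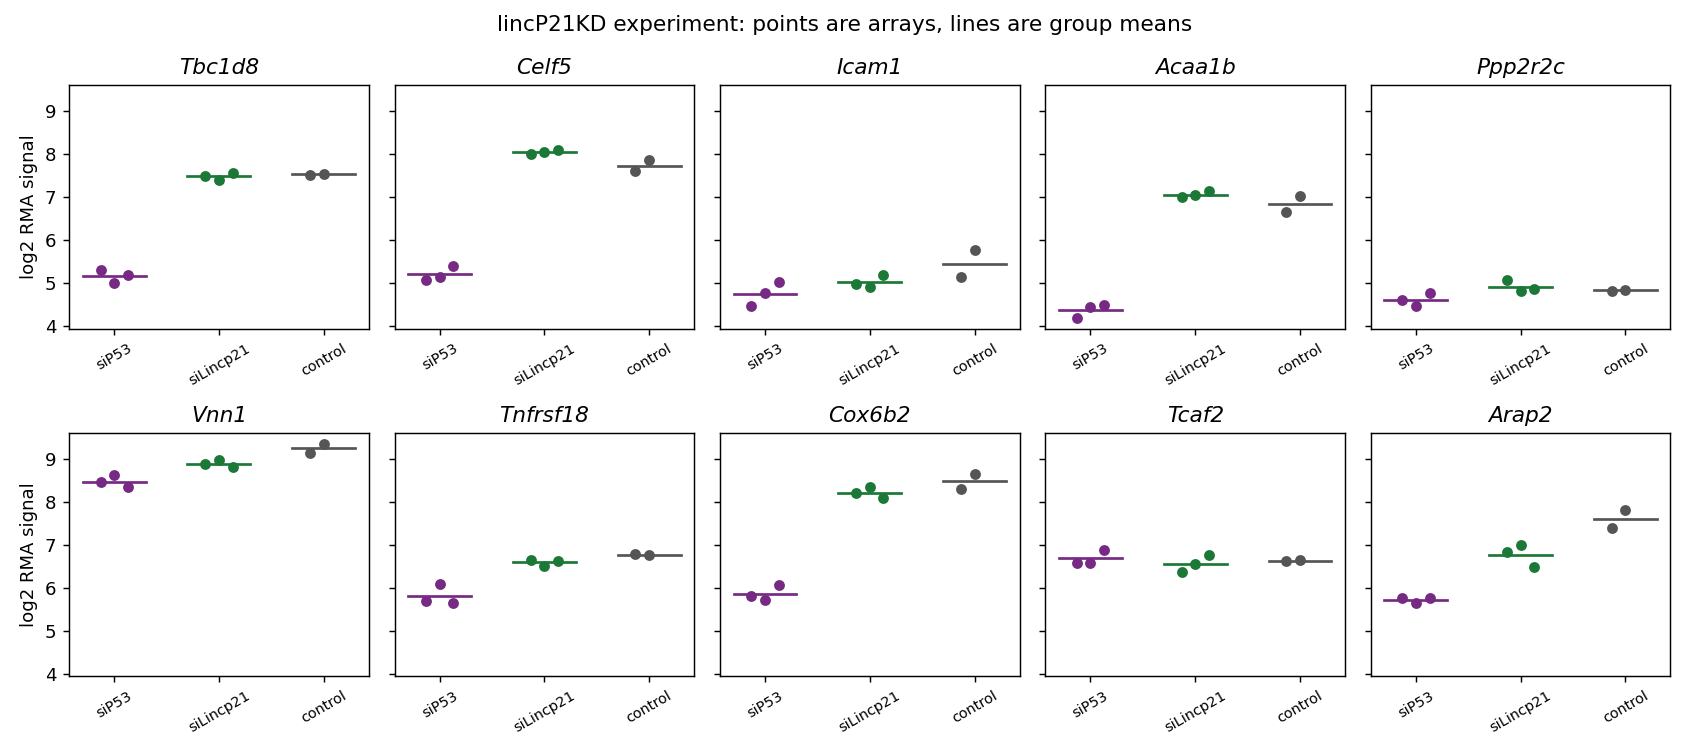
Log2 RMA signal (vertical axis) of each gene in the lincP21KD experiment for siP53, siLincp21 and control arrays (horizontal axis), with 3, 3 and 2 arrays and lines for group means. The siLincp21 points sit near the control points for most genes, all below them for Arap2, Vnn1 and Tnfrsf18 (21.4% of all genes) and all above them for Celf5 (27.8%).

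The siRNA against lincP21 lowered Arap2 in both experiments. The level of lincRNA-p21 itself is not analysed here. In hnRNPKKD Arap2 had 7.88, 7.98 and 8.05 log2 units with siLincp21, against 9.34, 8.95 and 9.23 with control, with every siLincp21 array below every control array, as for 23.2% of all genes. It fell by 1.20 ± 0.11 (SE) on the log2 scale (limma adjusted p = 7.40e-06). In lincP21KD it had 6.83, 6.99 and 6.48, against 7.39 and 7.82, and fell by 0.84 ± 0.16 (limma adjusted p = 0.00761). Without control replicate 2 of lincP21KD the difference was -0.62 and did not pass (limma adjusted p = 0.0774). With the mean of its 3 probe sets it was -0.43 there, which passed, with the others at -0.30 and -0.15. In hnRNPKKD the others were at -1.05 and -0.78.

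In hnRNPKKD, 5 of the 10 genes passed for siLincp21, against 33.1% of all genes tested. Besides the fall of Arap2, 4 rose (19.4% of all genes rose). Icam1 had 8.0, 7.96 and 8.11 with siLincp21, against 7.17, 6.63 and 7.15, a rise of 1.04 ± 0.21 or 2.06-fold (limma adjusted p = 0.00221). Celf5 had 9.24, 9.42 and 9.57, against 8.84, 8.19 and 8.85, a rise of 0.78 ± 0.20 (limma adjusted p = 0.00978). In both genes every siLincp21 array lay above every control array, as for 28.1% of all genes. Acaa1b (0.81 ± 0.28, limma adjusted p = 0.0416) and Ppp2r2c (0.32 ± 0.11, limma adjusted p = 0.0378) passed narrowly. The other probe sets of Ppp2r2c were at 0.08 and -0.15. Ppp2r2c did not pass with quantile scaling (limma adjusted p = 0.0749), centring (0.0819), no filter (0.0524) or array weights, where it was 0.20 (0.0751), and Acaa1b did not with centring (0.0542). Without siLincp21 replicate 1, 2 or 3, or without control replicate 2, neither passed: Acaa1b was then between 0.64 and 0.88 and Ppp2r2c between 0.28 and 0.36. Acaa1b also did not pass without control replicate 3 (0.85), nor Ppp2r2c without control replicate 1 (0.26). Tbc1d8 (0.49, limma adjusted p = 0.113) passed with array weights (limma adjusted p = 0.00206), with the mean of its probe sets (0.0291) and without siP53 replicate 2 (0.00597), the last a setting chosen after seeing the data. With siLincp21, 3 of 4 tested neural and 4 of 8 fibroblast markers also rose here, and 1 fibroblast marker fell. The fibroblast mean per array was 12.47 to 12.52, against 12.06 to 12.20 with control. The part of either marker list was not tested.

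In lincP21KD, 2 of the 10 genes passed, both lower, against 5.47% of all genes lower and 14.8% either way. Besides Arap2 it was Vnn1, with 8.88, 8.98 and 8.82 with siLincp21, against 9.14 and 9.35 (-0.35 ± 0.10, limma adjusted p = 0.0484). Vnn1 did not pass without siLincp21 replicate 1 (-0.34), siLincp21 replicate 3 (-0.31), control replicate 1 (-0.46) or control replicate 2 (-0.24). With the replicate number as a block Icam1 also passed, lower (-0.54, limma adjusted p = 0.0329). Of the fibroblast markers 5 of 8 rose with siLincp21 in this experiment, with a mean per array of 12.9 to 13.1, against 12.55 to 12.63 with control. Of the 4 neural markers tested 2 rose, with a mean of 6.15 to 6.18, against 5.83 to 5.85 with control. The part of either list was not tested.

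Icam1 differed between the experiments. Its siLincp21 difference was -0.43 ± 0.19 in lincP21KD (4.97, 4.91 and 5.18, against 5.14 and 5.75) and 1.04 ± 0.21 in hnRNPKKD. In lincP21KD its siLincp21 arrays and 1 control array lay under the filter limit of 5.245, so the difference there rests on a signal near the low end of the arrays. The test of the difference between them gave -1.47 ± 0.31 (limma adjusted p = 0.0064), the only call among the 10 genes, against 9.48% of all genes. Without control replicate 2 of lincP21KD it was -1.17 and did not pass (limma adjusted p = 0.0728). Without siP53 replicate 2 of hnRNPKKD Tbc1d8 passed as well (-0.53, limma adjusted p = 0.0400).

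**Figure D4:**
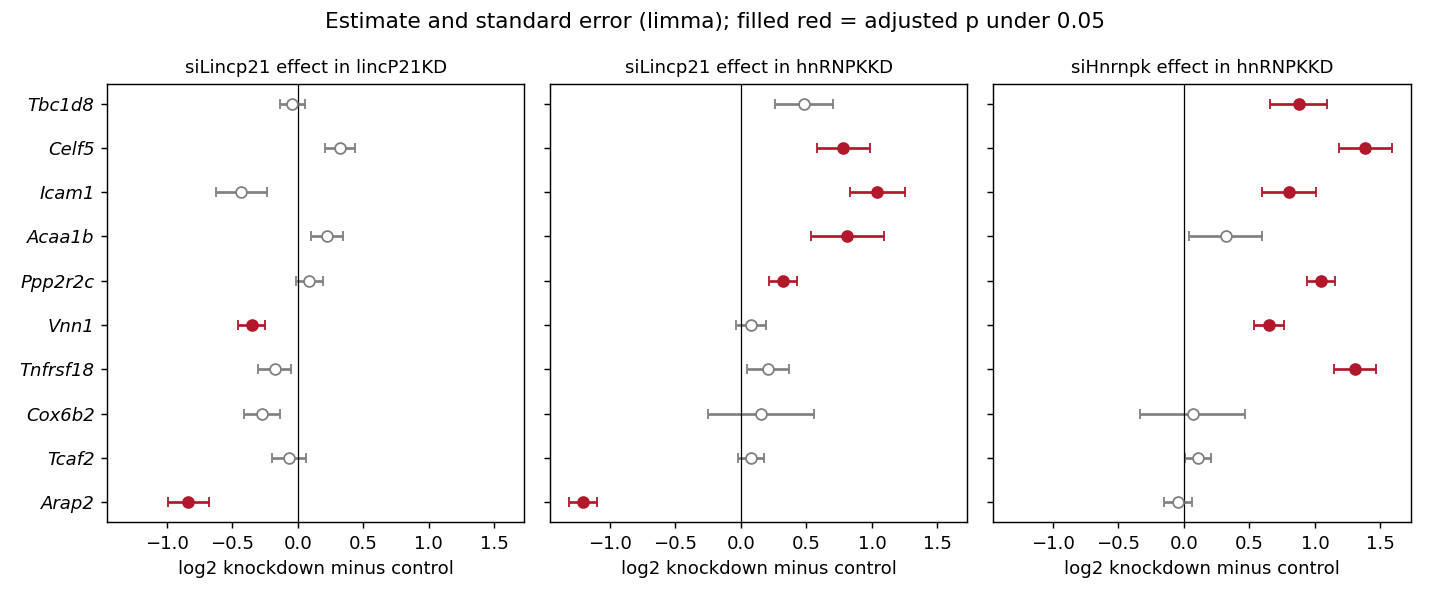
Log2 difference from control (horizontal axis, bars are 1 SE from limma) of each gene (vertical axis) for siLincp21 in lincP21KD, siLincp21 in hnRNPKKD and siHnrnpk in hnRNPKKD, filled red where adjusted p is under 0.05. Arap2 lies left of 0 with siLincp21 in both experiments and near 0 with siHnrnpk, while 6 genes are filled and right of 0 with siHnrnpk.

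The hnRNPK siRNA raised 6 of the 10 genes, against 15.7% of all genes that rose, and lowered none, against 14.9%. Celf5 had 10.00, 10.06 and 9.97 log2 units with siHnrnpk, against 8.84, 8.19 and 8.85 with control, a rise of 1.38 ± 0.20 or 2.61-fold (limma adjusted p = 0.000285). Tnfrsf18 had 8.57, 8.93 and 8.72, against 7.35, 7.24 and 7.70, a rise of 1.31 ± 0.16 or 2.48-fold (limma adjusted p = 9.55e-05). Ppp2r2c had 8.06, 8.15 and 7.99, against 6.91, 6.94 and 7.23, a rise of 1.05 ± 0.11 or 2.07-fold (limma adjusted p = 2.75e-05). Its other probe sets, both dimmer, were at 0.38 and -0.06. With the mean of its probe sets Ppp2r2c did not pass the filter on low values and was not tested. The siHnrnpk arrays of Celf5, Tnfrsf18 and Ppp2r2c lay above every control array, as for 27.3% of all genes.

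Tbc1d8 (0.87 ± 0.22, limma adjusted p = 0.0102), Icam1 (0.80 ± 0.21, limma adjusted p = 0.0115) and Vnn1 (0.65 ± 0.11, limma adjusted p = 0.000974) also rose with siHnrnpk. Without control replicate 2, Icam1 was 0.63 and did not pass (limma adjusted p = 0.0511). Arap2 had 9.21, 9.07 and 9.12 with siHnrnpk, against 9.34, 8.95 and 9.23, a difference of -0.04 ± 0.11 (limma adjusted p = 0.814). Acaa1b (0.32), Cox6b2 (0.07) and Tcaf2 (0.10) did not pass. Cdkn1a, the cell cycle inhibitor and p53 target, was 0.07 ± 0.18 from control (limma adjusted p = 0.814). Syt1, Tubb3 and Map2, 3 of the 4 neural markers tested of 6 listed, rose with siHnrnpk, and the list's mean per array was 5.92 to 5.97 with siHnrnpk, 5.72 to 5.82 with siLincp21 and 5.23 to 5.34 with control. Its part in these results was not tested.

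Set against each other in hnRNPKKD, siLincp21 and siHnrnpk gave different levels of 5 genes, all lower with siLincp21, against 13.6% of all genes. Arap2 (-1.16 ± 0.11, limma adjusted p = 1.05e-05), Tnfrsf18 (-1.10 ± 0.16, limma adjusted p = 0.000276), Ppp2r2c (-0.73 ± 0.11, limma adjusted p = 0.000305), Vnn1 (-0.57 ± 0.11, limma adjusted p = 0.00209) and Celf5 (-0.60 ± 0.20, limma adjusted p = 0.0376) made up the count. Celf5 did not pass without siLincp21 replicate 1 (-0.52) or 2 (-0.61), or without siHnrnpk replicate 1 (-0.61), 2 (-0.58) or 3 (-0.62). Icam1 was 0.24 ± 0.21 higher with siLincp21, which did not pass (limma adjusted p = 0.424). Without siP53 replicate 2, Tbc1d8 (-0.39, limma adjusted p = 0.0209) and Acaa1b (0.49, limma adjusted p = 0.0191) passed as well.

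Other genes of the pathways these genes belong to were taken from lists chosen with earlier results of these arrays known. Of 30 established p53 targets, 11 rose with hours of doxorubicin after AdenoCRE, against 4.11% of all genes, and none fell, with a median slope of 0.11 against -0.001 log2 units per hour for all genes. Perp (0.28), an adhesion protein of p53-driven death, Dcxr (0.30), Fas (0.25), a death receptor, and Ak1 (0.10), an adenylate kinase, had the smallest adjusted p (limma, 0.00119 to 0.00936). With AdenoCRE against AdenoGFP over all hours 24 of the 30 were higher and none lower, against 15.1% and 7.01% of all genes. Cdkn1a was 3.85 ± 0.15 units higher (limma adjusted p = 4.77e-05), although its slope on hours did not pass (0.13, limma adjusted p = 0.106). With siHnrnpk, 6 of the 30 rose, Sesn1 (0.85), Ddit4l (1.00) and Fas (1.01) among them, and 2 fell, of which Perp was -0.68, against 15.7% and 14.9% of all genes. With siLincp21 in hnRNPKKD 7 rose and 3 fell, against 19.4% and 13.6%, and in lincP21KD 1 rose and 4 fell, against 9.3% and 5.47%.

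Of 16 tested NF-kB targets, the group that Icam1 is known for, none passed for the AdenoCRE slope. With siP53 in hnRNPKKD 8 rose and 1 fell, against 21.9% and 21.4% of all genes: the chemokine Cxcl1 was 1.60 units higher, Bcl3, a regulator of NF-kB, 1.37 and Cxcl10 1.07, and the prostaglandin synthase Ptgs2 was -0.83. In lincP21KD 3 rose and 1 fell with siP53, against 8.34% and 6.97% of all genes, with a median of 0.009 for the list and for all genes. Icam1 itself was -2.57 in hnRNPKKD and -0.71 in lincP21KD. Fibroblast markers also differed in that contrast, with 5 of 8 higher and 1 lower and a list mean per array of 12.5 to 12.6 with siP53, against 12.1 to 12.2 with control, and their part was not tested.

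Of the 13 TNF receptor family genes tested besides Tnfrsf18, 2 rose with hours after AdenoCRE, Fas (0.25 log2 units per hour) and Eda2r (0.22), both p53 targets. Of 14 tested genes of PPAR alpha and peroxisomal fatty acid oxidation, the setting of Acaa1b and a known setting of Vnn1, 1 rose with hours, the kinase Pdk4 (0.27). With siHnrnpk 7 of these 14 fell and none rose, against 14.9% and 15.7% of all genes. With siP53 in hnRNPKKD 7 fell and 1 rose, against 21.4% and 21.9%, and with siLincp21 there 4 fell and 2 rose, against 13.6% and 19.4%. Of 22 Rab GAPs of the TBC1D family, 1 rose with hours, Tbc1d2 (0.23). Of 12 PP2A subunits 1 rose, Ppp2r5d (0.11), and of 8 genes around vanins and pantothenate 1 rose, Ppcs (0.13). Of 10 cytochrome c oxidase subunits, 4 CELF, 14 ARAP and related genes and 3 TCAF and TRP genes, none passed.

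None of the closest relatives described here passed for the AdenoCRE slope. Cox6b1, the widely expressed counterpart of Cox6b2, had a slope of 0.004 ± 0.015 log2 units per hour (limma adjusted p = 0.918), Tbc1d8b -0.05 ± 0.04 (limma adjusted p = 0.532) and Ppp2r2a -0.03 ± 0.02 (limma adjusted p = 0.262). Acaa1a was -0.06 ± 0.02 (limma adjusted p = 0.183) and Arap1 -0.02 ± 0.04 (limma adjusted p = 0.759). Tcaf1, next to Tcaf2 by name, had 0.09 ± 0.02 (limma adjusted p = 0.0634) with AdenoCRE and 0.02 ± 0.02 with AdenoGFP (limma adjusted p = 0.748).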

How the data were processed

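Expression was measured on 30 Affymetrix arrays of mouse embryonic fibroblasts. The authors' deposited values are log2 signals per probe set from RMA, per the submitters' processing notes (version and settings not stated there). Medians over all probe sets of an array were 4.976 to 5.032 in the time course, 4.832 to 4.914 in hnRNPKKD and 5.546 to 5.656 in lincP21KD, so no level was compared across them. Of 45101 probe sets, 34958 had 1 gene symbol, 932 several and 9211 none in GEO's platform annotation; per gene the one with the highest mean was used. The lowest 40% of the 18194 genes were left out, which left 10916.

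limma 3.58.1 (R 4.3.3) was fitted on all genes kept, with eBayes and Benjamini-Hochberg adjustment at 0.05: 1 fit for the time course slopes, 1 for the virus difference with hour as a factor, 1 for each siRNA experiment over all its groups, and 1 joint fit for the difference between experiments. The method was tested on simulated data. The genes and lists were chosen with earlier results of these data known. Named are the 10 genes, Cdkn1a, Mdm2, Hnrnpk, up to 4 genes of a list with the smallest adjusted p, close relatives by name, and the 6 most alike by Pearson correlation; 1700007K13Rik, Arhgef4, Slc4a11 and single markers were named after their values were seen. Replicate numbers were checked as pairs: same-numbered siHnrnpk and control arrays deviated together (correlations 0.251, 0.215 and 0.229), the other groups did not in every pair. The block changed no call for siHnrnpk among the 10 genes. Alternatives were scaling, filter, moderation, array weights, probe set choice, time scale, block and left-out arrays. The RAS experiment of the series is not used here.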

Additional observations from a re-analysis of the deposited data

Results flagged for a closer look

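The siLincp21 difference of Icam1 was lower in lincP21KD than in hnRNPKKD by the test of the difference itself. The value was -1.4719 on the log2 scale (limma adjusted p = 0.0064), with Icam1 below its control mean in lincP21KD and above it in hnRNPKKD. It was -1.17 without control replicate 2 of lincP21KD, where the control pool has 2 arrays. The siLincp21 arrays of Icam1 in that experiment lay under the filter limit.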

How the results depend on the processing

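Over 903 values of the 10 genes under alternatives, 845 kept their direction and their side of the threshold, 30 no longer passed, 14 newly passed and 14 changed sign. Those that changed sign were never called. They were the AdenoGFP slope of Celf5 (-0.000681 with quantile scaling, -0.00112 with array weights, -0.00438 on log2 hours, -0.0218 to 0.00879 with 1 hour left out), siLincp21 in lincP21KD for Tbc1d8 (0.0786, mean of probe sets) and Tcaf2 (-0.166 to 0.0310 with 1 array left out), siLincp21 in hnRNPKKD for Vnn1 (-0.0373 with array weights, -0.0582 to 0.170 with 1 array left out), siHnrnpk for Cox6b2 (-0.0682 with array weights, -0.0469 to 0.204 with 1 array left out) and Arap2 (-0.156 to 0.0420 with 1 array left out), and siLincp21 against siHnrnpk for Cox6b2 (-0.0204 to 0.249 with 1 array left out) and Tcaf2 (-0.114 to 0.0697 with 1 array left out). The cause was not tested.

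Array weights raised the genes called for siLincp21 to 2740 of 10916 in lincP21KD, against 1612, and to 5700 in hnRNPKKD, against 3613; for siHnrnpk to 5822, against 3341; for siLincp21 against siHnrnpk to 5990, against 3434; and for the difference between experiments to 3121, against 1035. Leaving out 1 array at a time gave 341 to 1577 genes for siLincp21 in lincP21KD and 393 to 914 for the difference between experiments. AdenoGFP slopes were called for 2 genes with quantile scaling or centring, 0 on log2 hours, with the 60% filter or with any hour left out, against 1. Of the 10 genes, with the 60% filter, which keeps only Vnn1 and Cox6b2, 1 passed for siLincp21 in lincP21KD, 0 in hnRNPKKD, 1 for siHnrnpk, 1 for siLincp21 against siHnrnpk and 0 for the difference. For siLincp21 in lincP21KD 1 passed with no filter, with the mean of probe sets and with a probe set filter, and 0 to 2 with 1 array left out. For siLincp21 in hnRNPKKD 3 passed with centring and 3 to 5 with 1 array left out. For the difference 3 passed with array weights, 2 with the mean of probe sets and 0 to 1 with 1 array left out. Without siP53 replicate 2 of hnRNPKKD the difference was called for 1694 genes, 2 of them among the 10. That setting and the probe set filter were chosen after seeing the data. An AdenoGFP onset was reached by 4 genes at a rise of 0.5 and by 1 at 1.5, against 2. With the replicate block 1698 genes were called for siLincp21 in lincP21KD, 4083 for siLincp21 and 3762 for siHnrnpk in hnRNPKKD.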
